A study of Homo sapiens with 8 samples.

Results

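The origins of replication described here were counted in WT cells and in the ORC1 knockout (ORC1KO, also called ORC1Δ). All rows of the deposited count table of these lines that lie on chromosomes 1 to 22 and X were used, which are 42156 of 42421 origins. Both lines are HCT116 cells, an epithelial colon cancer line, and both lack p53, so the controls carry that deletion too. WT here means that ORC1 is intact, and the knockout was made from the same parent line with CRISPR–Cas9. Each line has 2 replicates, which are 4 of the 8 samples of the series. Whether the knockout line is a single clone is not given in the sources used here. The table gives 1 count per origin and line, the sum over both replicates, so the spread between replicates is unknown and no test between the lines was run. Intervals on folds speak of counting error alone and those on shares of the choice of origins alone, and PCR reads are not independent molecules.

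The origin recognition complex marks the places where DNA replication can start by helping to load the MCM helicase onto DNA, and ORC1 is its largest subunit. In human cells, start sites are spread over broad zones, and many lie close to active promoters and CpG islands. SNS-seq finds them by sequencing short nascent strands, the first pieces of new DNA, after selection by size and digestion with lambda exonuclease, which removes DNA that does not carry an RNA primer. The label of a knockout cannot be checked with such data. The ORC1 gene held a single origin, in an intron, with 89 WT reads and 81 ORC1KO reads (log2 fold −0.20, 95% interval −0.65 to 0.25), and reads there do not show whether the gene was cut.

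The sequences of origins at both ends of the ranking show a contrast in base composition. Stretches of 120 bases around the midpoint of 5 of the most gained origins follow, read on the strand that holds more G than C, from the hg38 reference. Capitals mark each TGTG and each GATG.
lncRNA ENSG00000288978, chr5:3785661-3785780, minus strand: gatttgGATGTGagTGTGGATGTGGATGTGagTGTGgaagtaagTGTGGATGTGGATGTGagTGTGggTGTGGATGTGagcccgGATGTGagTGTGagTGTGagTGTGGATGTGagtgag
upstream of NUB1, chr7:151313148-151313267, plus strand: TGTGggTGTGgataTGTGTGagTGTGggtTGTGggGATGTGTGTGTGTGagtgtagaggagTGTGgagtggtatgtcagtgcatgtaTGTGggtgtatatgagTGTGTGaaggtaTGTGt
upstream of MXRA8, chr1:1367090-1367209, plus strand: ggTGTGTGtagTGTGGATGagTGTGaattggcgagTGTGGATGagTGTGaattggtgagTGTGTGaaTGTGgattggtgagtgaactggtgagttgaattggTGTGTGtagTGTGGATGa
KLHDC4 intron, chr16:87739030-87739149, minus strand: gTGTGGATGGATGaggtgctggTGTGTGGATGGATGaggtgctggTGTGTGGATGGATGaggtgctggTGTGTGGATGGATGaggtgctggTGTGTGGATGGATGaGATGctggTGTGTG
ARNT2 intron, chr15:80444972-80445091, plus strand: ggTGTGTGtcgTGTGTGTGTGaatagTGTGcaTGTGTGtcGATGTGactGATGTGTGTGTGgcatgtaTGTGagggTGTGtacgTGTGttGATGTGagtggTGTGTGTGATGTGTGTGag

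These stretches held 53 to 62 G and 2 to 6 C, with 37 to 46 T and 15 to 23 A. They are close to, but not exact, repeats of short G and T rich words. For comparison, stretches of the same length from 3 of the most reduced origins follow, also on the strand richer in G. Capitals mark each CG. The first lies in a stretch of chromosome 7 in which nearly all origins were lower in ORC1KO, and the other two lie elsewhere.
ADAP1 intron, chr7:922637-922756, minus strand: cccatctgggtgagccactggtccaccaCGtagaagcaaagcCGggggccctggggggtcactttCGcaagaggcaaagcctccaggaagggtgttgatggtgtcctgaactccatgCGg
CEP170B start, chr14:104865981-104866100, minus strand: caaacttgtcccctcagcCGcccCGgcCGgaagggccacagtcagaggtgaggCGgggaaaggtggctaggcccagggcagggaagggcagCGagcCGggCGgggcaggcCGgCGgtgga
outside genes, chr2:90245263-90245382, minus strand: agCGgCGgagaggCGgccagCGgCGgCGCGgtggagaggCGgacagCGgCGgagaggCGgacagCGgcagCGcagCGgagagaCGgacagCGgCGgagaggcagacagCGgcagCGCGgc

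The reduced stretches held 31 to 34 C beside 41 to 63 G, and at most 1 TGTG or GATG. 

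Reads were expressed as RPM, which scales both lines to the same library total. The totals of the table were 6416892 in WT and 6691088 in ORC1KO. An origin was called up or down when its RPM differed from that of WT by at least 1.5-fold, the rule of the study. Of the 42156 origins, 2965 were up, which is 7.03%, and 1665 were down, which is 3.95%. The median origin had 114 WT reads and 120 ORC1KO reads, and its log2 fold (ORC1KO over WT) was −0.014, with an interquartile range of −0.23 to 0.24. The 95% Clopper-Pearson interval of a single log2 fold reached 0.39 to either side at the median origin, so most single origins could not be told from no change at this depth. An interval that left out 0 was found for 29.1% of origins, for 2963 of those called up, and for 1664 of those called down. Origins called up had few reads in WT, with a median of 69 against 129 in ORC1KO. Those called down had 115 in WT against 72 in ORC1KO. The call itself asks for such a difference, so these medians partly follow from the choice.

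**Figure D1:**
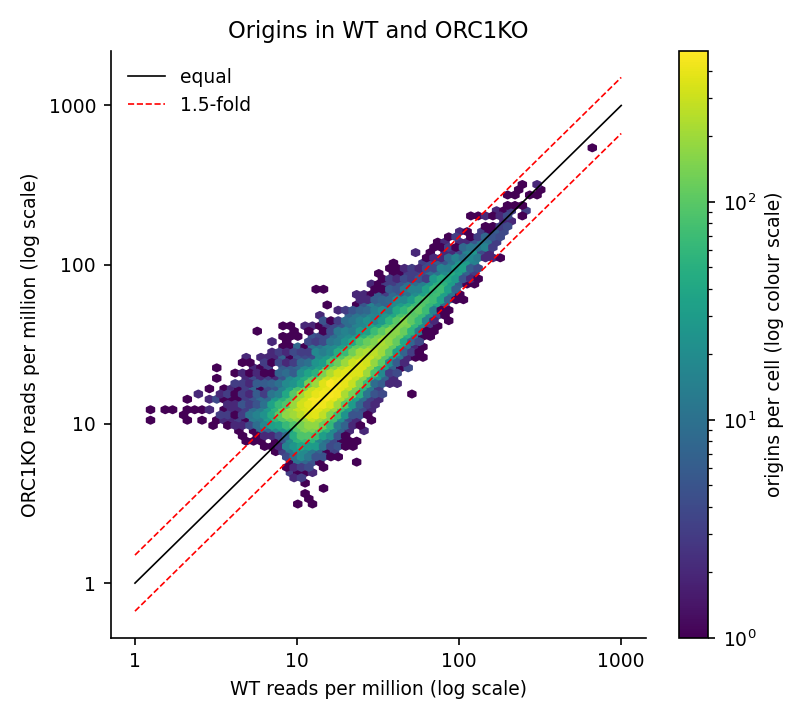
RPM in WT (horizontal) and ORC1KO (vertical) of the 42156 origins, both on log scales, with colour for the number of origins per cell. The solid line marks equal values and the dashed lines 1.5-fold, beyond which 2965 origins were up and 1665 were down, and the cloud below 10 RPM in WT reaches farthest above the line. A low WT count raises the fold by itself, so this reach is no separate result.

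Position in the lists of origins went with the counts. The lists are the MACS2 peaks found in both replicates of a line, and they give no height. On the chromosomes used, 71.1% of the 30195 WT origins (95% Wilson interval 70.6% to 71.6%) overlapped an ORC1KO origin, and 64.1% of the 33530 ORC1KO origins overlapped a WT origin. In the count table, 21392 origins were on both lists, 12038 on the ORC1KO list only, and 8726 on the WT list only. All origins, also those on a single list, had reads in both lines, with at least 8 in WT and 21 in ORC1KO. Origins on the ORC1KO list only had medians of 80 WT and 104 ORC1KO reads, and 2395 of them, or 19.9%, were up. Those on the WT list only had medians of 97 and 82 reads, and 1260 of them, or 14.4%, were down. A peak called in a single line tends to be higher there, so these counts partly follow from the choice, though 45 of the WT list only were up and 26 of the ORC1KO list only were down. The origins on both lists held 525 up and 379 down.

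The ratio of ORC1KO to WT origins on a chromosome ranged from 0.956 on chromosome 22 to 1.37 on chromosome 8. Chromosomes 8 and 13 (1.36) stood highest, and chromosomes 17, 19, 22, and X lay below 1. Each list held only origins with a near neighbour, as the largest distance to the next origin was 26017 bp in WT and 25683 bp in ORC1KO, so origins that lie alone are not covered.

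Base composition went with much of the pattern, and GC content was the first measure. The median log2 fold was highest at 40 to 45% GC and lower on both sides. It was −0.038 in origins under 35% GC (8.24% up and 5.49% down) and 0.17 at 35 to 40%. It fell from 0.24 in origins with 40 to 45% GC (5172 origins, 15.2% up and 1.31% down) to −0.40 in those with 70% GC or more (1364 origins, 0.0733% up and 26.3% down). Between 50 and 55% GC, where 6.57% were up and 1.88% were down, the median was 0.032. Origins that lie in CpG islands, the CpG-rich stretches that mark many promoters, followed this. Of 5556 such origins, 56 were up and 718 were down, which is 12.9% (95% Wilson interval 12.1% to 13.8%), with a median of −0.26. Among the 36600 others, 7.95% were up and 2.59% were down.

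The second measure was GC skew, the excess of G over C or of C over G on a strand, as a share of both. Its sign had little bearing on the counts, as 69.7% of origins below −0.8 were up and 69.1% of those above 0.8. By size, 2.38% were up and 10.4% were down in the 5717 origins with an absolute skew under 0.2, with a median log2 fold of −0.22. In the 1013 origins with an absolute skew of 0.8 or more, 69.3% were up (95% Wilson interval 66.4% to 72.1%) and 4 were down, with a median of 0.80. Strong skew and GC content are not the same measure. At a skew of 0.8 or more, the share of origins up was 77.1% below 45% GC, 79.4% at 45 to 50%, 69.6% at 50 to 55%, and 39.1% at 55 to 60%. At 60 to 65% GC it was 16.0%, of 25 origins. At a skew under 0.2, 55 of 1449 origins were down below 45% GC, and 166 of 433, or 38.3%, at 70% GC or more.

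The third measure was which base goes with the G, and this split the skewed origins. On the strand richer in G, an origin can hold more T than A or more A than T. Among the 2879 origins with an absolute skew of 0.6 or more, 571 were rich in G and T, by a T excess over A of at least 0.2 as a share of both, and 944 were rich in G and A. Of the former, 84.2% were up (95% Wilson interval 81.0% to 87.0%) and none of 571 was down, with a median log2 fold of 1.07. Of the latter, 16.1% were up (13.9% to 18.6%) and 11 were down, with a median of 0.22. Origins even in T and A lay between, with 56.7% up and a median of 0.64. At a skew of 0.8 or more, the median went from 0.073 where A exceeded T by over 0.4 to 1.58 where T exceeded A by over 0.4.

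**Figure D2:**
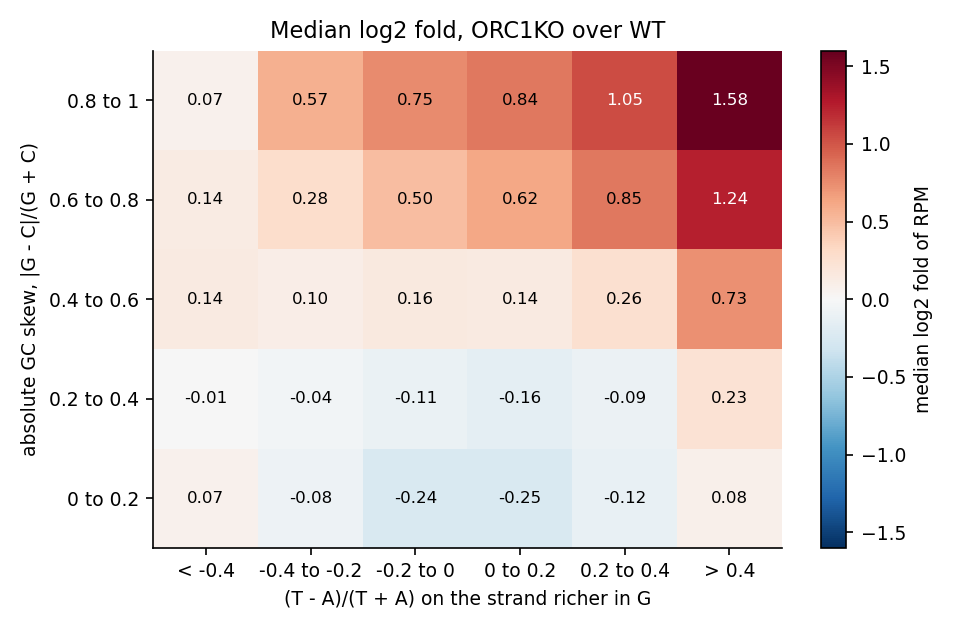
Median log2 fold (ORC1KO over WT) in cells of absolute GC skew (vertical) and of T excess over A on the strand richer in G (horizontal), with the value printed in each cell and its colour from blue (lower in ORC1KO) to red (higher). The value went from −0.25 in cells with little skew and even T and A to 1.58 in the cell with the most skew and the most T, and the row with the most skew began at 0.073 where A was in excess.

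Among short tandem repeats, units with T gave a higher share of origins up than their partners with A in its place. The units GGAT and GAT hold as many T as A, so by their own bases they are even in T and A. Units are spelled on the strand richer in G. They were searched on both strands, in any rotation, with at least 6 copies in a row for units of 2 bases, 5 for 3 bases, and 4 for 4 bases, and an origin can count under several. GGAT repeats were found in 1023 origins, which are 2.43% of all origins and 16.3% of those up, and 47.1% of these 1023 were up, with a median log2 fold of 0.56. GAT repeats were found in 89 origins, or 0.211% of all, of which 63 were up (70.8%) and none was down. GGT repeats in 322 origins gave 47.2% up, and GT repeats in 920 origins gave 28.9% up. Units with A in place of T gave a lower share up. GGAA repeats in 644 origins gave 15.4% up, GA repeats in 1012 gave 7.41%, and GGA repeats in 388 gave 2.32%. GGGT repeats in 432 origins gave 17.4% up, and GGGA repeats in 958 gave 10.9%. The medians of this pair went the other way, at 0.079 for GGGT and 0.15 for GGGA. Repeats of GGC, in 214 origins, stood at the other end, with 0 up and 71 down, or 33.2%, and a median of −0.45.

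The words TGTG and GATG, marked in the printed sequences, were counted on the strand richer in G, with overlapping matches. They were chosen with results of these data known and counted in the same origins. The counts below therefore describe these origins and are no separate support. All origins held a median of 1.29 per 100 bases, and 98.3% of them held at least 1. The median was 3.49 in origins up and 0.839 in origins down. Of the 1844 origins with 6 or more per 100 bases, 65.3% were up (median log2 fold 0.74) and 3 were down. Runs of 3 or more G, counted on the same strand, went the other way. In the 500 origins with fewer than 0.5 runs per 100 bases, 57.4% were up, and in the 26115 with 3 or more, 3.82% were up. Their median GC contents were 43.5% and 56.7%. After GC correction the median log2 folds were 0.51 and 0.0027. At 1 to 2 and at 2 to 3 runs they were −0.011 and −0.027, so no trend was left from 1 run upward.

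The 8 origins with the highest log2 fold among the 26745 origins with at least 200 reads were all on the ORC1KO list and absent from the WT list. They had 31 to 95 WT reads and 179 to 472 ORC1KO reads, and they lie on chromosomes 1, 5, 7, 9, 15, 16, and 19. The minimum applies to the reads of both lines together, and these origins met it mainly through ORC1KO. Their few WT reads and their absence from the WT list thus partly follow from the ranking by fold. The highest, in a lncRNA gene (ENSG00000288978) on chromosome 5, had 36 WT and 245 ORC1KO reads, 5.61 and 36.6 RPM, for a log2 fold of 2.71 (95% interval 2.20 to 3.25). Next came origins upstream of NUB1 and of MXRA8, each with 31 and 179 reads (log2 fold 2.47, 1.91 to 3.07). The gene for KLHDC4, a protein with kelch repeats, held an intron origin of 86 and 472 reads, and that for the transcription factor ARNT2 held one of 44 and 224 reads (log2 fold 2.29, 1.82 to 2.79). The other three lie outside genes, nearest to ZNF469, LHX2, and PLPP2 (log2 folds 2.26, 2.25, and 2.24). Their absolute GC skew was 0.59 to 0.92, and T exceeded A on the G-rich strand in all 8. Their GC content was 43.3% to 55.9%, and the words TGTG and GATG stood at 8.38 to 20.3 per 100 bases.

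Of the 8 lowest origins, 6 lie in the first 1.6 Mb of chromosome 7. The lowest, at a start of PRKAR1B, a regulatory subunit of protein kinase A, had 332 WT and 104 ORC1KO reads, 51.7 and 15.5 RPM, for a log2 fold of −1.73 (95% interval −2.07 to −1.41). Origins in ADAP1 (147 and 53 reads), in C7orf50 (188 and 72, and 215 and 96), at the start of PDGFA, a growth factor gene (158 and 61), and in a PRKAR1B intron (160 and 62) followed, with log2 folds of −1.53 to −1.22. The other two, both on chromosome 11, lie at the starts of FLRT1 (170 and 75 reads, log2 fold −1.24) and SMCO4 (197 and 87 reads, −1.24), and their GC contents are 81.4% and 72.1%. Outside the stretches of chromosomes 5 and 7 described later, the next were at the starts of CDH4, a cadherin gene (187 and 84 reads, −1.21), CEP170B (164 and 75, −1.19), and TMEM235 (261 and 122, −1.16), in an intron of CXCL12, a chemokine gene (221 and 107, −1.11), and at 2 places outside genes on chromosome 2. With FLRT1 and SMCO4, these 8 had GC contents of 61.4% to 81.4% and skews of at most 0.24.

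Gene parts were compared by the midpoint of each origin. Within 1 kb of a start of a protein-coding gene lay 4493 origins, of which 53 were up (1.18%) and 484 were down (10.8%, 95% Wilson interval 9.90% to 11.7%), beside the 7.03% and 3.95% of all origins. Their median log2 fold was −0.22, with an interquartile range of −0.40 to −0.037. Introns held 19134 origins, of which 7.58% were up and 2.87% were down, with a median of 0.013. Genes that are not protein-coding (5048 origins) and the rest of the genome (12152) were close to the introns, with 7.88% and 8.44% up and 2.87% and 3.11% down. Coding exons (656 origins) had 1.68% up and 9.76% down, and 3′UTRs (654) had 3.98% up and 6.57% down. Only 19 origins fell in 5′UTRs outside those classes, with 0 up and 1 down. Of all origins down, 29.1% lay at transcription starts, and of those up, 1.79%.

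The reads themselves moved with the same classes. CpG islands held 20.8% of the WT reads and 17.9% of the ORC1KO reads. In the other direction, introns held 43.9% and 44.7%. Transcription starts, with 14.8% of the WT reads, lost share too, and a median origin there had 158 WT and 140 ORC1KO reads.

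By distance, the fall at starts was sharp. From 500 bp before a start up to it, 228 of 1474 origins were down (15.5%) and 7 were up (0.475%), and in the first 500 bp after it, 11.0% were down and 0.641% were up. Between 1 and 2 kb before a start, 3.28% were down and 4.38% were up. Farther than 100 kb upstream, 9.54% were up and 2.85% were down.

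**Figure D3:**
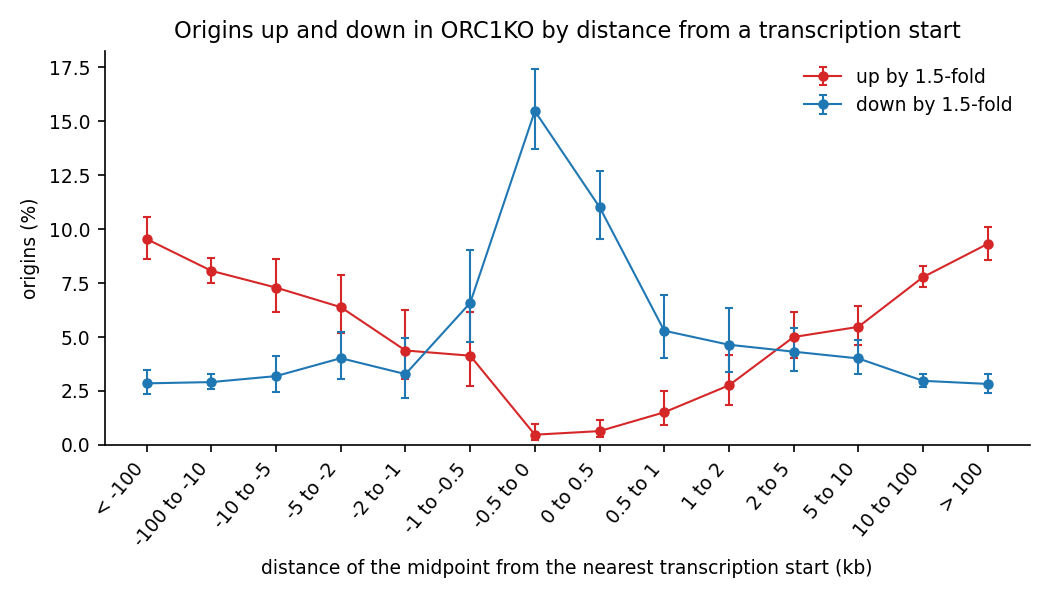
Percent of origins up (red) and down (blue) by 1.5-fold in ORC1KO, by the distance of the midpoint from the nearest start of a protein-coding gene in kb, with negative values upstream and bars for 95% Wilson intervals. The share down peaked at 15.5% in the 500 bp before a start, where the share up was lowest at 0.475%.

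Gene parts differ in GC content, and most of the contrast between starts and introns went with it. Origins at starts had a median GC content of 62.8%, and those in introns 52.1%. At 60 to 65% GC, the medians were −0.21 at starts (1112 origins) and −0.20 in introns (2292). At 50 to 55% GC they were −0.016 and 0.044, and at 70% or more −0.42 and −0.33. After subtraction of the running median of the log2 fold over GC content, the median at starts was −0.016, against −0.22 before. Origins in 3′UTRs kept a lower median, −0.12, and at 45 to 50% GC they stood at −0.072 (94 origins) against 0.18 in introns. CpG islands were lower in every gene part, with medians of −0.27 at starts and −0.22 in introns, and those of the other origins there were −0.097 and 0.029. This too went with GC content, as the median over all island origins was −0.26 before and −0.019 after the GC correction.

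Within introns, the strand of the G excess relative to the gene did not turn the direction. With an excess of at least 0.6 on the coding strand, 54.3% of 670 origins were up (median log2 fold 0.64), and on the template strand, 44.8% of 589 were up (0.53).

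The same measures were taken over origins on both lists, where presence does not differ. At a skew of 0.8 or more, 186 of 366 origins were up (50.8%, median 0.60), and none was down. The medians of G and T rich and of G and A rich origins were 0.60 and 0.14. At 70% GC or more the median was −0.33, with 106 of 804 down, and at transcription starts it was −0.19, with 4.69% of 2731 down. These medians were smaller in size than over all origins and had the same sign. The median of introns did not, at −0.044 over 9711 origins against 0.013 over all intron origins.

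Origins were then ranked by strength, as the mean RPM of both lines. The weakest decile (6.15 to 11.1 RPM) had 16.8% up and 8.80% down with a median log2 fold of 0.12, and the strongest decile (41.6 to 602.5 RPM) had 4.77% up and 0.878% down with a median of −0.077. The medians fell in 8 of the 9 steps between neighbouring deciles. In the weakest decile, a typical origin had 62 WT and 69 ORC1KO reads, so that counting error alone is wide there. Median GC content rose from 48.2% to 60.8% over the same deciles. After the GC correction the strongest decile stood at 0.095 and the weakest at 0.013, which reverses the order. Among origins at transcription starts, 30.4% of the weakest decile and 1.09% of the strongest were down. Among origins with a skew of 0.6 or more, 63.5% of the weakest and 31.2% of the strongest were up. The strongest decile of origins in each line held 28.5% of its reads in WT and 27.9% in ORC1KO.

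Strength was also taken from the reads of the ORC5 knockout in its own table, a line outside the comparison. Only origins found there could be ranked, so the set differs, and 5.06% of its weakest decile were up. The median log2 fold was −0.099 in the weakest decile and −0.090 in the strongest, so these ends did not differ as before. From decile 2 to the strongest it still went from −0.020 to −0.090, before any GC correction. Median GC content rose from 48.7% in the weakest decile to 61.6% in the strongest. After the GC correction the medians rose, from −0.17 in the weakest decile and −0.089 in decile 2 to 0.10 in the strongest. Origins over 2 kb wide, which were 70, had 14 up and 0 down. In the 7141 origins of 300 to 400 bp, 7.31% were up and 5.85% were down.

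Along the chromosomes, the medians by chromosome ran from −0.10 on chromosome 22 to 0.16 on chromosome 8, where 294 of 2644 origins were up (11.1%) and 25 were down (0.946%). Chromosome 13 (median 0.14) and chromosome 5 (0.083) followed, and chromosome 19 (−0.096) and chromosome 17 (−0.088) were near the lower end. With GC correction the chromosome 8 and 13 values were 0.10 and 0.088, still the highest. DNA copy number was not measured, so a change along a long part of a chromosome and one in copy number cannot be told apart.

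Blocks of 5 Mb with at least 10 origins numbered 546, and the central 90% of their GC-corrected medians lay between −0.14 and 0.14. Only 16 lay beyond 0.25, 8 on each side, and 9 of them were on chromosome 5. On chromosome 5 from 31015352 to 44244560, 61 of 153 origins were up (39.9%), 0 were down, and the median log2 fold was 0.50, with 148 above 0. From 53479188 to 69186991, 46 of 58 were down (79.3%), 0 were up, and the median was −0.85, with all 58 below 0. Past 70 Mb the median of chromosome 5 was 0.017, and in its first 30 Mb it was 0.19, with 17.9% of origins up. The limits of these stretches, and of the one on chromosome 7, were set after seeing the values. On chromosome 7, 93 of the 127 origins of the first 1.6 Mb were down (73.2%) and 1 was up, with a median of −0.87, and between 1.6 and 3.2 Mb the median was −0.18. The first 5 Mb of chromosome X had 26 of 81 origins up (32.1%), where 14 of the 290 beyond were up. These 81 were mixed, with 27 below 0, and their median absolute skew was 0.54, against 0.38 beyond.

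**Figure D4:**
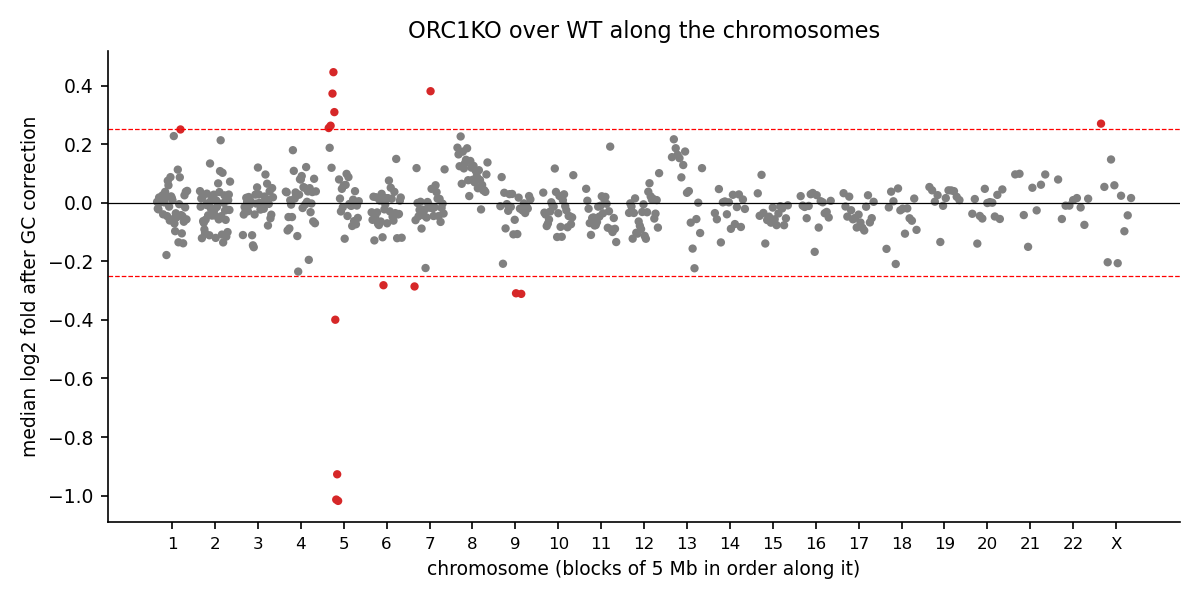
Median GC-corrected log2 fold (ORC1KO over WT) of each 5 Mb block with at least 10 origins, in order along each chromosome, with dashed lines at 0.25 to either side and red points beyond them. Chromosome 5 held points up to 0.45 and down to −1.02, and the blocks of chromosome 8 lay mostly above 0.

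Within the stretches, the skew of an origin still went with its call. In the higher stretch of chromosome 5, 37 of 109 origins with a skew under 0.4 were up (33.9%), and 24 of 44 with more (54.5%). In the stretch of chromosome 5 with losses, 28 of 32 origins with a skew under 0.4 were down, and so were 18 of 26 with more. In the stretch of chromosome 7, 70 of 75 with a skew under 0.4 were down, and 23 of 52 with more. Together, the 3 stretches hold 338 of the 42156 origins, with 62 up and 139 down. Without them, 2903 origins were up and 1526 were down, and the share down at transcription starts was 10.5%.

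The shares by distance from a chromosome end had no single trend. At 1 to 2 Mb from an end, 9.67% of 2027 origins were up and 8.29% were down, and over 10 Mb away, 6.44% and 3.24%. The median at 1 to 2 Mb was −0.14 before and 0.042 after GC correction. The first 1.6 Mb of chromosome 7, with 93 origins down, also add to the losses within 2 Mb of an end. At 100 to 500 kb, 6.35% of 646 were up and 8.67% were down, and within 100 kb, 12.5% of 72 were up and 2.78% were down. The GC content of the surrounding 100 kb showed the trend of the origins themselves, as the median went from 0.18 below 38% GC to −0.18 at 54% or more. At a fixed GC content of the origin it differed by band. Among origins with 45 to 50% GC, the median was 0.18 where the surroundings had under 42% GC (8.30% up) and 0.54 where they had 54% or more (44.7% of 206 up). At 50 to 55% GC these medians were 0.077 and 0.10, and at 55 to 60% they were −0.080 and −0.10. The distance to the nearest origin had little bearing, with 7.66% up within 1 kb and 7.00% up beyond 10 kb.

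At the level of genes, the reads of all origins in a gene and its 2 kb upstream were summed. Of 9359 protein-coding genes with an origin, 1475 had at least 5 origins and 500 reads. Only 2 of these were up by 1.5-fold (0.136%) and 6 were down (0.407%), and their median log2 fold was −0.0037. The 95% intervals lay above 0 for 363 genes and below 0 for 354.

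The 6 genes down all lie in the first 1.6 Mb of chromosome 7. MICALL2, which takes part in the recycling of membrane proteins, was lowest, with 1382 WT and 661 ORC1KO reads in 5 origins, 215 and 98.8 RPM, for a log2 fold of −1.12 (95% interval −1.26 to −0.99). All 5 of its origins were down, from −1.69 to −0.89. ADAP1 and COX19 overlap and share their 8 origins, with 1679 and 943 reads (log2 fold −0.89, −1.01 to −0.78), so they count as a single case. C7orf50 had 4047 and 2477 reads (−0.77), SUN1, which links the nucleus to the cytoskeleton, 2163 and 1425 (−0.66), and PRKAR1B 4217 and 2785 (−0.66), with 11 of its 15 origins down. Outside that stretch, the lowest were TEX22 (541 and 398 reads, −0.50), GPSM1, a regulator of G protein signalling (803 and 591, −0.50), AGAP3 (735 and 549, −0.48), and BRD1, a chromatin reader (801 and 600, −0.48). These 4 fell short of 1.5-fold.

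The genes up were LIFR, the receptor of leukaemia inhibitory factor, and SLC10A7, a membrane transporter of the bile acid carrier family. LIFR, in the higher stretch of chromosome 5, had 683 WT and 1239 ORC1KO reads, 106 and 185 RPM, for a log2 fold of 0.80 (95% interval 0.66 to 0.94). All 9 of its origins, each in an intron, were up, from 0.62 to 1.03, so the difference was spread over the gene. SLC10A7, on chromosome 4, had 757 and 1195 reads (log2 fold 0.60, 0.47 to 0.73), but 1 of its 7 origins was up. That origin, with a skew of 0.75, had 222 and 532 reads (1.20), and its neighbours lay between −0.38 and 0.55.

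UBE2E3, a ubiquitin-conjugating enzyme, followed with 373 and 580 reads (0.58), just short of 1.5-fold, and 3 of its 6 origins were up. Below it came RPS6KA5, a kinase of histone H3 (295 and 451, 0.55), SEMA5A, an axon guidance gene on chromosome 5 (363 and 553, 0.55), SHC3, an adaptor protein (1029 and 1546, 0.53), CNTNAP2 (613 and 900, 0.49), WDR70 in the higher stretch of chromosome 5 (922 and 1353, 0.49), DOCK4 (353 and 516, 0.49), and PSD3 (419 and 611, 0.48). The highest genes had median GC contents of 40.6% to 51.6% over their origins, and the lowest 57.6% to 67.3%.

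**Figure D5:**
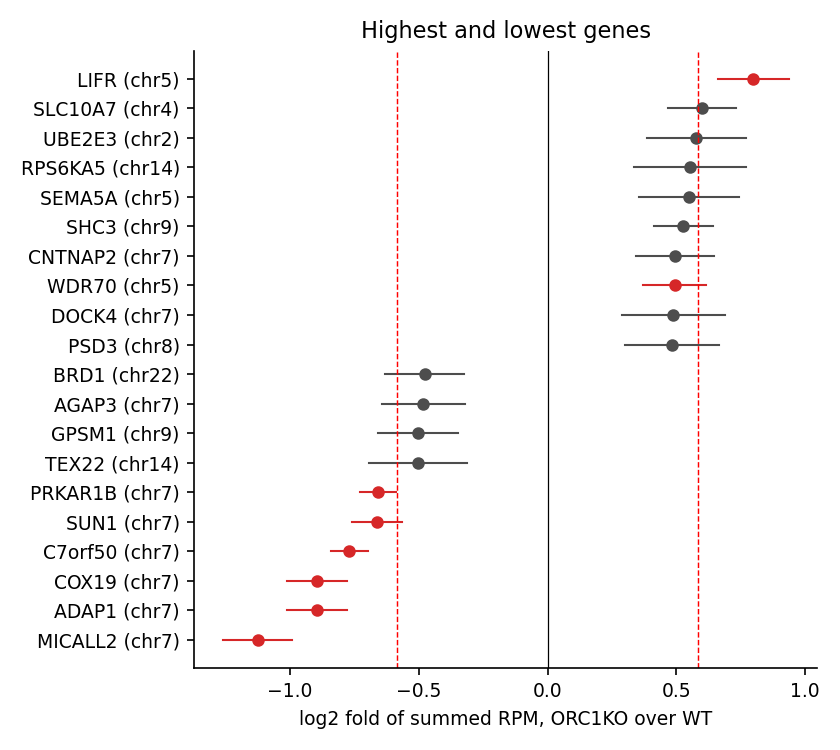
Log2 fold of summed RPM (ORC1KO over WT) of the 10 highest and the 10 lowest genes among 1475, with lines for 95% Clopper-Pearson intervals (counting error only), dashed lines at 1.5-fold, and red for genes in the stretches of chromosomes 5 and 7. MICALL2 was lowest at −1.12 and LIFR highest at 0.80, and all genes past the lower dashed line were red.

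Of the gene groups, the HOX genes, which pattern the body axis and lie in CpG-rich clusters, were lower. A median log2 fold of −0.30 was found over the 24 HOX genes with an origin, of which 1 lay above 0, beside −0.0037 over the 1475 ranked genes. Neighbouring genes share origins, so the unique origins are the better count. These were 36, with 5 down (13.9%), 0 up, and a median of −0.29, beside 3.95% down, 7.03% up, and −0.014 over all origins. After GC correction their median was −0.19. HOXB3 had 1784 and 1458 reads (−0.35), HOXC4 1113 and 938 (−0.31), HOXC6 974 and 825 (−0.30), and HOXB7 854 and 746 (−0.26). None of these, the HOX genes with the most reads, reached 1.5-fold, but some HOX genes with fewer reads and a single origin did.

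Genes of large common fragile sites, which are long, held 206 origins, with 22 up (10.7%), 3 down (1.46%), and a median of 0.13, beside 7.03% up, 3.95% down, and −0.014 over all origins. After GC correction their median was −0.012. RBFOX1, a splicing regulator, had 3559 and 4236 reads (0.19), and CSMD1, on chromosome 8, had 2556 and 3255 (0.29), with 7 of its 25 origins up. SDK1 (2379 and 2377 reads) stood at −0.062.

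Genes of colon epithelium and the Wnt pathway held 105 origins, with 4 up (3.81%), 5 down (4.76%), and a median of −0.14, where all origins had 7.03% up, 3.95% down, and −0.014. After GC correction the median of these 105 was −0.044. EPHB2, a receptor of the crypt, had 2960 and 2809 reads (−0.14), TCF7L2, the main Wnt transcription factor of the colon, 1702 and 1750 (−0.020), and MUC2, a mucin, 1379 and 1787 (0.31), with 1 of its 5 origins up. The other 3 up origins of this group lie in MUC5AC, a neighbouring mucin gene (648 and 928 reads, 0.46). The 5 down lie in separate genes.

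Genes of origin licensing and firing held 33 origins, with 0 up, 1 down (3.03%), and a median of −0.047, and so few origins can hardly be set against the 7.03% up and 3.95% down of all origins. POLE, the catalytic subunit of DNA polymerase epsilon, had 1040 and 984 reads (−0.14), RECQL4 558 and 513 (−0.18), and TICRR, a factor of origin firing, 489 and 493 (−0.049). Ribosomal protein genes held 28 origins, with 1 up (3.57%, against 7.03% of all origins) and 0 down (against 3.95%, median 0.054), among them RPL36 with 749 and 898 reads (0.20) and RPS16 with 487 and 538 (0.083). The replication-dependent histone genes held only 6 origins, and the protocadherins only 3, none of them past 1.5-fold. In H2AC25, 811 WT and 845 ORC1KO reads (−0.0011) were counted. The protocadherin origins, shared by PCDHGA1, PCDHGA2, and the other genes of that cluster, had 385 and 354 reads (−0.18, 95% interval −0.39 to 0.031).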

How the data were processed

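SNS-seq was run on WT and ORC1KO cells, with 2 replicates per line. The deposited count table holds the number of reads per origin of each line, without normalization and with the replicates merged by the authors, and the deposited lists of origins hold start and end positions on hg38. Reads were trimmed with Trim Galore 0.6.4 and aligned with Bowtie, peaks were called with MACS2 per replicate, and bedtools kept those in both, per the labels and the study's methods. The tool for counting reads and the handling of duplicates are not given in the sources used here. The other contigs and chromosome Y held 1.07% of the WT and 1.14% of the ORC1KO reads and were left out, but count toward the totals used for RPM.

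GC content, skew, repeats, and CpG islands (length over 200 bp, 50% GC, observed over expected CpG over 0.6, score of 17 per CpG) came from the hg38 sequence. GENCODE release 44 gave genes, and each origin entered the first class that its midpoint met, in the order transcription start, 5′UTR, coding exon, 3′UTR, intron, other gene, outside genes. The GC correction subtracted a running median over 2001 origins. Intervals were 95% Clopper-Pearson for folds and Wilson for shares. Alternatives covered scaling (edgeR TMM factors, median of ratios, reads in shared origins), GC, filters, thresholds, classes, blocks, and overlaps.

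Genes were named by rank, as the 10 highest and 10 lowest by log2 fold of summed reads with at least 5 origins and 500 reads, as were the 8 highest and lowest origins with at least 200 reads, and 2 to 4 members with most reads of each list, where numbers allowed. MUC5AC was named in addition, for its up origins. The members, the lists, and the rules were chosen with earlier results of these data known. Limits of the long stretches, and their removal, were chosen after seeing the data. The ORC5KO counts served only to rank strength, and the ORC2KO files and ORC5KO list were not used. Values were computed in Python 3.11.15 (pandas 2.3.3 for tables, numpy 2.4.6 and scipy 1.17.1 for statistics, pysam 0.24.0 for sequence) and in R with edgeR 4.0.16.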

Additional observations from a re-analysis of the deposited data

How the results depend on the processing

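No paired analysis was possible because the table merges the replicates of a line, and for the same reason no replicate could be left out. Of 116 values under alternatives, 79 kept their direction and stayed within the interval of the main value or, for counts, within 1.5 times. Part of these 79 could not have changed, so the count is no measure of stability. A change of scale shifts all log2 folds alike, which leaves differences of medians and the count of GC-corrected blocks as they were. A minimum of 50 reads gave every main value again. With the GC correction the strongest minus the weakest decile of origins reversed from −0.20 to 0.082, and it was 0.0087 when strength came from ORC5KO reads. The difference between transcription starts and introns was −0.23, and with the GC correction it was −0.026, with 2.40% of origins at starts down. At a skew of 0.8 or more, 59.3% were up with the correction and the median exceeded that under 0.2 by 0.87, the difference by GC content was −0.0048, and that of chromosome 13 was 0.088. With reads in shared origins as the scale, which moved all log2 folds by 0.043, 8.46% at starts were down and 73.1% of skewed origins were up. With at least 200 reads, 1475 origins were up, 735 were down, 7 blocks lay beyond 0.25, and the differences were −0.20 at starts (7.97% down), −0.10 by strength, 0.78 between G and T rich and G and A rich origins, and −0.50 by GC content. With 2-fold as the threshold, 721 were up and 143 were down, and by presence on the lists 12038 and 8726. Any overlap and 2 kb upstream gave −0.25 and −0.20 at starts. In windows of 500 bp, 56.1% of skewed origins were up, with differences of 0.87 by skew and −0.52 by GC content. Blocks of 1 Mb and 10 Mb gave 41 and 5 beyond 0.25. By the midpoint, 70.3% of WT origins were shared. For genes, 3 origins as the minimum gave 19 up and 14 down, 10 gave 0 and 2, GC-corrected reads gave 3 down, and removal of the stretches of chromosomes 5 and 7, chosen after seeing the data, gave 1 up and 0 down. The causes of these changes were not tested. Depth limits single origins, whose intervals spanned about 0.39 to either side.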
